A study of Mus musculus with 2 samples.

Results

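The collagen genes of mouse back skin were followed through the cell lineages of healthy and imiquimod-treated skin. The gene tables of both libraries listed 27998 genes, of which 44 had a symbol made of Col, a number, a and a number, and these 44 are the genes described. By the architecture of their proteins, 11 encode fibrillar collagens, 9 basement membrane and anchoring collagens, 9 network-forming collagens, 9 FACITs (fibril-associated collagens with interrupted triple helices), and 6 transmembrane and other collagens. No collagen gene was without UMIs, and 42 had at least 20 UMIs (unique molecular identifiers, each marking 1 captured transcript) over both libraries. Col10a1, a collagen of growth-plate cartilage, and Col9a1, a chain of cartilage type IX collagen, had 6 and 16 UMIs.

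Collagens are proteins of the extracellular matrix, most of them secreted and some spanning the cell membrane, in which 3 chains wind into a triple helix. Fibroblasts of the dermis assemble types I, III and V into the fibrils that give skin its strength, while type IV collagen forms the sheets of basement membrane under the epidermis and around vessels, nerves and muscle. FACITs sit on fibril surfaces, type VI forms beaded filaments near cells, and types VII and XVII anchor basal keratinocytes to the dermis.

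Dorsal skin was taken from wild-type female C57BL/6 mice aged 2 months. One group, the control, has no treatment described in the labels, and the other had imiquimod (IMQ), which activates Toll-like receptor 7 and brings on inflammation resembling psoriasis, put on the skin daily for 5 days. Cells were released with collagenase D and DNase1, dead cells were removed, and droplet-based 3' single-cell libraries were sequenced. Each group is 1 library, and the number of animals in each is not given in the sources used here, so no difference between the libraries could be tested and each value describes these 2 libraries only.

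The promoters of 6 collagens whose values carry the account below are shown first: the type I chain Col1a2 and the type III chain Col3a1, which were lower by unequal amounts, Col8a1, with the highest ratio in fibroblast-like cells among collagens of at least 50 CPM, the neighbours Col4a6 and Col4a5, which were lower together, and the keratinocyte collagen Col17a1. Each stretch runs 5′ to 3′ on the gene's strand and lies within the 250 bases before the transcript start in RefSeq (build GRCm38.p6), without bases that any annotated exon covers. For Col1a2, Col17a1 and Col4a5 exons of the gene itself covered the bases nearest the start, which were not searched. Their stretches run from base 248 to 126, 250 to 53 and 250 to 35 before the start. The Col1a2 stretch lies inside the span of that gene given below. Capitals mark matches, on either strand, to the GC box GGGCGG, the TATA box TATAAA or the CCAAT box CCAAT.
Col1a2: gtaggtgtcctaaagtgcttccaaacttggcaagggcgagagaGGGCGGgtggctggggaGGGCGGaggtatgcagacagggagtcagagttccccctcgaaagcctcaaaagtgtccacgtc
Col3a1: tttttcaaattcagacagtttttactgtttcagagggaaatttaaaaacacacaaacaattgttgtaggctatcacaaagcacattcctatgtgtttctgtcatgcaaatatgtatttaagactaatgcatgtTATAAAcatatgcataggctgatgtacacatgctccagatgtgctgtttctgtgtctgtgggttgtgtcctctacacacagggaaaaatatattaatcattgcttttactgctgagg
Col8a1: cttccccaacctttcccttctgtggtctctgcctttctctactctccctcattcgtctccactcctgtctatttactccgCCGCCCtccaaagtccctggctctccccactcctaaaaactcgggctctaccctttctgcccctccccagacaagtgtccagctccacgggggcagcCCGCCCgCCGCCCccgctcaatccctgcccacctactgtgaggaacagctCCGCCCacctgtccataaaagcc
Col4a6: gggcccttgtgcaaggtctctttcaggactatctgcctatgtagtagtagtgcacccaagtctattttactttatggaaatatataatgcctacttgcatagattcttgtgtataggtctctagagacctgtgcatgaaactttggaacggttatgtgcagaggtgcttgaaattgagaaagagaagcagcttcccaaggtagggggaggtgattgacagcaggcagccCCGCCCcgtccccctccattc
Col4a5: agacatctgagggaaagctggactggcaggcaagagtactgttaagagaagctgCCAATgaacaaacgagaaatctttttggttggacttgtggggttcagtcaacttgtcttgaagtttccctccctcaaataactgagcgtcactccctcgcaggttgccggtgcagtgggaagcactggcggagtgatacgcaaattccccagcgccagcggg
Col17a1: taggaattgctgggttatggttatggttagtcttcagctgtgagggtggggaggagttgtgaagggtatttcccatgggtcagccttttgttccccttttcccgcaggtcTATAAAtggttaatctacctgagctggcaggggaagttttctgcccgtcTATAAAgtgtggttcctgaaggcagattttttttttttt

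The Col1a2 stretch is chr6:4505370-4505492 on the plus strand, Col3a1 is chr1:45311288-45311537 on the plus strand and Col8a1 is chr16:57754738-57754987 on the minus strand. Col4a6 is chrX:141474077-141474326 on the minus strand, Col4a5 is chrX:141475169-141475384 on the plus strand and Col17a1 is chr19:47692095-47692292 on the minus strand. Col1a2 held 2 GC boxes in 123 bases, a match present in 13.3% of all promoters over the same stretch. Col8a1 held 4 GC boxes and Col4a6 held 1, against 32.7% of 32851 promoters with at least 1 in their 250 bases. Col3a1 held 1 TATA box (12.4% of promoters) and Col17a1 held 2 (9.08% over its stretch), while Col4a5 held 1 CCAAT box (30.5% over its stretch). The AP-1 letters TGANTCA were also searched, and none of the 6 stretches held them, as against 6.75% of all promoters. The motifs do not overlap one another. Of 44 collagen symbols 35 had a promoter entry, 38 entries in all, and of these 22 held a GC box, 13 a CCAAT box, 5 a TATA box and 1 the AP-1 letters. The shares over all promoters were 32.7%, 33.8%, 12.4% and 6.75%, in the same order. These matches are descriptions of the letters and say nothing of which factor binds.

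The genome places several collagens side by side. All 44 identifiers were found in GENCODE M21 (GRCm38), and 8 neighbouring pairs lay within 200 kb. Col4a1 (chromosome 8, 11198423 to 11312826, minus strand) and Col4a2 (11312805 to 11449287, plus strand) lie head to head and overlap by 22 bases. Col4a6 (chromosome X, 141165403 to 141474076, minus strand) and Col4a5 (141475385 to 141689234, plus strand) lie head to head with 1308 bases between them, and Col4a4 and Col4a3 on chromosome 1 with 71. Col3a1 (chromosome 1, 45311538 to 45349706, plus strand) and Col5a2 lie tail to tail, 24614 bases apart. The type I genes lie apart from each other, Col1a1 on chromosome 11 (94936224 to 94953042, plus strand) and Col1a2 on chromosome 6 (4504814 to 4541544, plus strand).

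After filtering, 9875 control and 8389 IMQ cells remained, with medians of 9468 and 12543 UMIs per cell, and 23 barcodes occurred in both libraries. Cells were assigned to 12 lineages by marker genes, none of them a collagen. These assignments were rebuilt here. Unsupervised clusters were named by their highest mean score for the same markers. Of assigned cells 99.8% fell in a cluster of the same name, which the shared markers make likely, so it is no independent check. Some fibroblast clusters came almost wholly from 1 library, with 1914 control and 3 IMQ cells in such a cluster and 9 and 968 in another. Fibroblast-like cells numbered 6562 in the control and 3639 in the IMQ library, keratinocyte-like cells 1566 and 2099, pericyte-like cells 317 and 196, Schwann-like cells 155 and 160, and blood endothelial-like cells 24 and 103. Of fibroblast-like cells 1.59% lay near the limits of the gate. Their median relative score for the fibroblast markers was 0.658, and the highest median for another lineage was 0.0273 (Schwann). Levels are given as CPM, the UMIs of a gene per 1000000 UMIs of the lineage, and since each transcript gives 1 tag at its 3' end no length correction applies. Ratios carry exact 95% intervals for counting error only. A gene is called higher or lower in the IMQ library at a ratio of at least 2-fold with an interval that excludes equality, among genes with at least 20 UMIs. Free RNA, the level of a gene in T, NK and myeloid-like cells together, was 576 CPM for Col1a1 in the control and 53.1 in the IMQ library, and it is given beside the main values that come near it.

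Collagen transcripts were found mostly in fibroblast-like cells, though many single collagens were highest in another lineage. Collagens made up 8.28% of all UMIs in the control and 1.96% in the IMQ library, and fibroblast-like cells held 98.0% and 95.6% of them. In the control library 17 of 35 collagens reached their highest level in fibroblast-like cells, where 6.16% of all genes did, among them Col1a1, Col1a2, Col3a1, the type VI chains and Col14a1. Pericyte-like cells (the gate also takes in vascular smooth muscle) were highest for 5, namely Col4a1, Col4a2, Col4a5, Col4a6 and Col18a1, against 9% of all genes. Schwann-like cells, the glia of skin nerves, were highest for Col9a3, Col11a1, Col11a2, Col24a1 and Col28a1 (12% of all genes). Keratinocyte-like cells were highest for the anchoring collagens Col7a1 and Col17a1 (9.41% of all genes), and blood endothelial-like cells for Col13a1 and Col8a1 (8.51%). Some of these places rest on few UMIs in the lineage named and are uncertain. They are Col11a2 on 1 UMI, Col8a1 on 3 (19.4 CPM, 4.01 to 56.8) and Col11a1 on 7. In the IMQ library fibroblast-like cells were highest for 14 of 38 collagens, where 7.05% of all genes were. Blood endothelial-like cells were then highest for 3, Col13a1, Col15a1 and Col4a2 (7.49% of all genes). Schwann-like cells were highest for 8 (14.6% of all genes), now with Col16a1, Col20a1, Col27a1 and Col5a3.

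**Figure D1:**
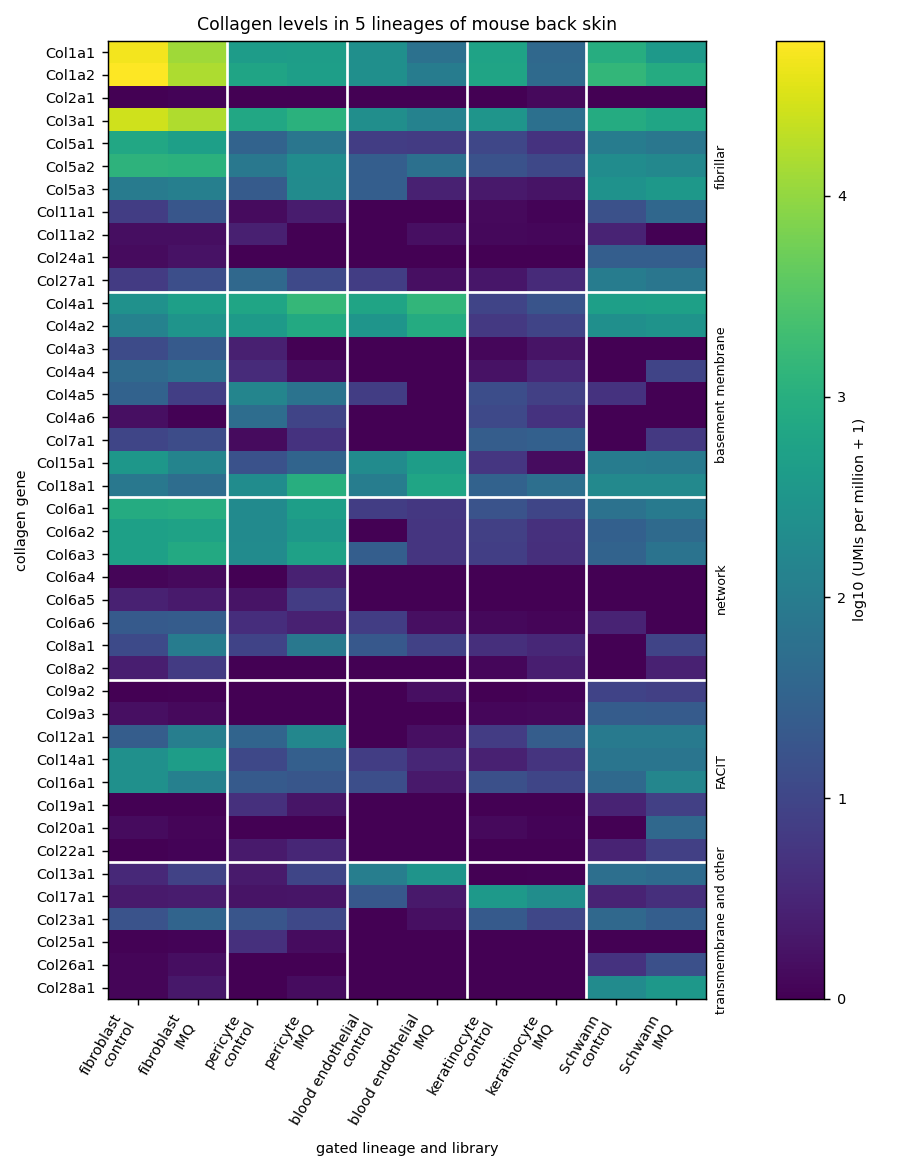
Levels of the 42 collagen genes with at least 20 UMIs (vertical axis, by type) in 5 lineages of each library (horizontal axis), as log10 of CPM plus 1. Compared along a row, Col1a1, Col1a2, Col3a1, Col6a1, Col6a2 and Col6a3 are brightest in the fibroblast columns. Col4a1 and Col4a2 are brightest in the pericyte and blood endothelial columns, Col18a1 in the pericyte columns and Col17a1 in the keratinocyte columns.

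Summed over all chains, fibrillar collagen transcripts were lower in fibroblast-like cells of IMQ skin, a sum made up mostly of Col1a1, Col1a2 and Col3a1. All 44 collagens together took 14.0% of the UMIs of control fibroblast-like cells and 4.95% of those of IMQ cells, 2.83-fold less (2.83 to 2.84). Fibrillar collagens went from 136857 to 45246 CPM, 3.02-fold lower, and from 97.6% to 91.5% of collagen UMIs. The sums of the other types were not lower: basement membrane collagens had 900 CPM in the control and 1084 in the IMQ library, network collagens 1926 and 2411, FACITs 527 and 687, and transmembrane and other collagens 19.6 and 44.1. These sums were 1.20-fold to 2.25-fold higher in CPM, of which the lower values are no more than the shift of the median gene given next, and they include members that were called lower.

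Among the 37 collagens measured in fibroblast-like cells, 11 were called higher (13.3% of all 14481 genes measured were) and 7 lower (3.83% of all genes), and 19 were neither. The median log2 ratio was 0.22 for collagens and 0.31 for all genes, so a typical gene was slightly higher in CPM in IMQ fibroblasts. With levels scaled to that median gene 7 collagens were higher and 8 lower. The other 7 collagens had under 20 UMIs in these cells.

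Type I collagen, the main fibrillar protein of skin, differed most in absolute level. Col1a1, its alpha 1 chain, had 48525 CPM in the control and 12098 in the IMQ library, 4.01-fold lower. Its partner Col1a2 had 59093 and 15324 CPM, 3.86-fold lower, both with counting intervals too narrow to matter. Col3a1, the type III chain that mixes with type I in fibrils, had 27160 and 16094 CPM, 1.69-fold lower and short of the 2-fold limit, which it passed when levels were scaled to the median gene (log2 ratio -1.06) or weighted to the control mix of subtypes (-1.02). Type III transcripts therefore went from 0.560 to 1.33 per Col1a1 transcript, while Col1a2 stayed at 1.22 and 1.27 per Col1a1. In both libraries Col1a1, Col1a2 and Col3a1 stood far above their free RNA, which for Col3a1 was 352 and 60.7 CPM.

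No type V or minor fibrillar chain was called lower, as type I was. Col5a1 and Col5a2, whose protein starts fibrils and sets their width, had 733 and 1235 CPM in the control and 487 and 1099 in the IMQ library. Both were on the lower side (log2 ratios -0.59 and -0.17), neither past 2-fold. Col5a3, a further type V chain, had 97.2 and 113 CPM. Col11a1, a type XI chain related to type V, was higher at 17.9 against 6.22 CPM (2.87-fold, 2.56 to 3.24). Col24a1 and Col27a1 were called higher from low levels, 0.362 to 0.746 and 5.65 to 12.8 CPM. Both fell under 2-fold with fibroblasts taken from unsupervised clusters (log2 ratios 0.93 and 0.91). Free RNA of Col27a1 could not be judged, since T and NK-like cells of the control held 125 CPM of it. Col11a2 was near 0.5 CPM in both libraries.

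**Figure D2:**
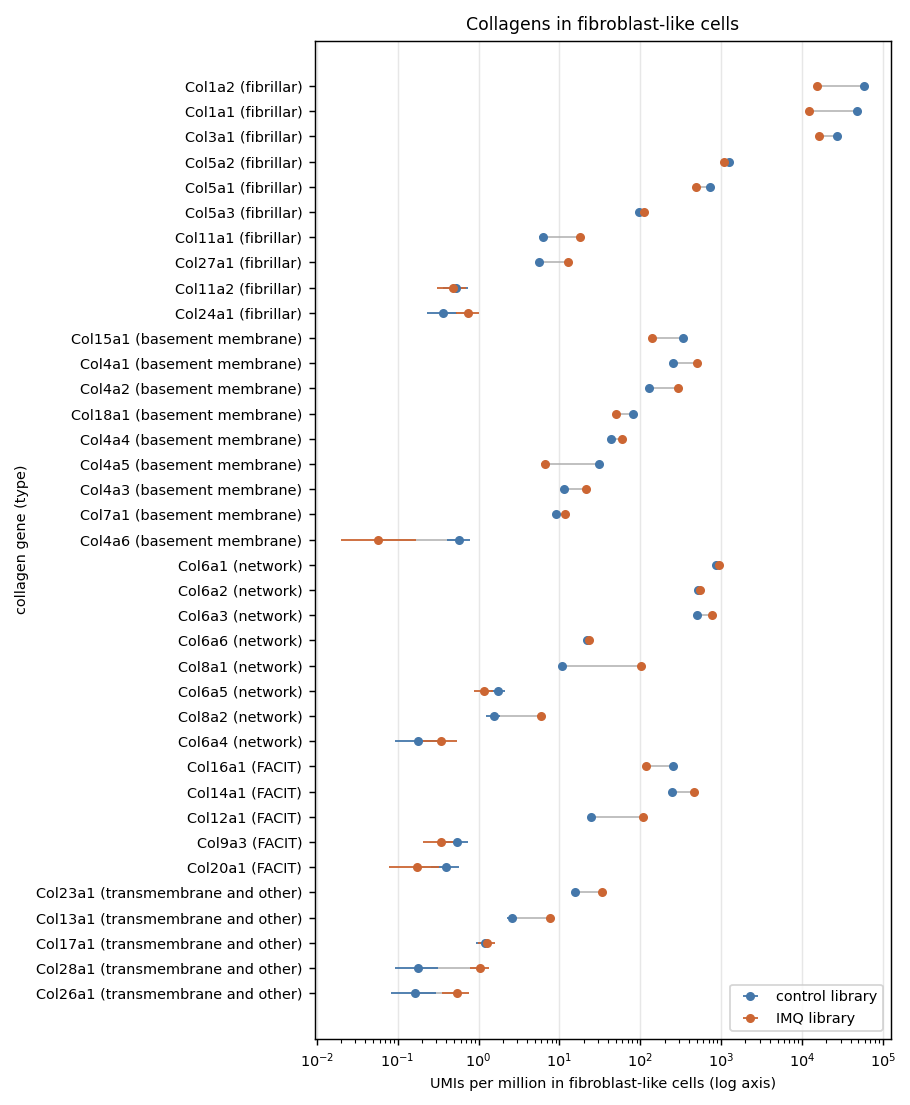
Level of each of 37 measured collagens in fibroblast-like cells (CPM, log axis) in the control and IMQ library, with exact 95% counting intervals. Col1a1, Col1a2 and Col3a1 lie lower in the IMQ library, Col8a1 and Col12a1 lie higher, and Col6a1 and Col6a2 almost coincide.

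The basement membrane collagens of fibroblasts split by chain pair. Col4a1 and Col4a2, the pair present in nearly all basement membranes, were on the higher side: Col4a2 had 127 and 293 CPM (2.30-fold higher, 2.24 to 2.36), and Col4a1 had 256 and 502 CPM, at 1.96-fold just inside the limit. Col4a2 came to under 2-fold with scaling to the median gene. The second pair, the head-to-head X chromosome genes Col4a5 and Col4a6, was lower. Col4a5 had 31.0 and 6.56 CPM (4.72-fold lower, 4.21 to 5.31), and Col4a6 had 38 UMIs in the control and 3 in the IMQ library (9.99-fold lower, 3.17 to 50.6). The third pair, Col4a3 and Col4a4, had 11.4 and 43.1 CPM in the control and 21.5 and 60.1 in the IMQ library, neither past 2-fold. The multiplexin Col15a1, which links basement membrane to fibrils, had 341 and 139 CPM (2.44-fold lower, 2.38 to 2.51). Its relative Col18a1, the source of endostatin, had 80.5 and 49.8 CPM, 1.62-fold lower. Col7a1, the anchoring fibril collagen, had 9.09 and 11.7 CPM, and passed 2-fold with the control mix (log2 ratio 1.05).

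Type VI collagen was within 2-fold while the type VIII chains were higher. Col6a1, Col6a2 and Col6a3, the chains of the pericellular filaments, had 874, 511 and 505 CPM in the control and 948, 555 and 776 in the IMQ library, and Col6a1 stayed at 1.71 transcripts per Col6a2 transcript. The other type VI chains were below 24 CPM. Col8a1, a short-chain collagen of hexagonal networks found around vessels, had 10.8 CPM in the control and 101 in the IMQ library, 9.32-fold higher (8.62 to 10.1). Its partner Col8a2 had 1.54 and 5.89 CPM (3.83-fold higher). Col8a1 was present in 2.62% of control and 12.8% of IMQ fibroblast-like cells, or 1.41% and 6.30% after thinning each cell to 2000 UMIs (245 and 99 shallower cells left out). It was in 0 of 160 control and 0 of 672 IMQ myeloid-like cells thinned in the same way, which allows shares of cells with a UMI, not of cells expressing the gene, of up to 2.28% and 0.547% (exact binomial 95% limits).

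FACITs moved in opposite directions. Col12a1, which binds type I fibrils in tissues under tension, had 24.4 CPM in the control and 107 in the IMQ library, 4.39-fold higher (4.15 to 4.64). It was present in 11.2% and 34.2% of cells, and in 4.54% and 12.5% at 2000 UMIs per cell. T and NK-like cells thinned alike held it in 2.22% and 1.49%. Col14a1, a fibril-surface collagen of similar build, had 250 and 461 CPM (1.84-fold higher, not called). With the control mix of subtypes it passed 2-fold, with a log2 ratio of 1.02. Col16a1, a minor FACIT of dermal fibrils, had 251 and 118 CPM (2.12-fold lower, 2.06 to 2.19), or a log2 ratio of -0.95 as a mean over cells. Col20a1 was lower on 26 and 9 UMIs, and Col9a3 was near 0.5 CPM or below in both libraries.

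Of the remaining collagens, Col23a1, a transmembrane collagen, had 15.5 and 33.5 CPM (2.17-fold higher, 2.01 to 2.34). This call is weak and depends on the cells taken. Its log2 ratio of 1.12 became -0.25 when fibroblasts were taken from unsupervised clusters and 1.85 with the control mix of subtypes. Col13a1, a transmembrane collagen of cell adhesion, had 2.59 and 7.69 CPM (2.97-fold higher). It was under 2-fold with clusters (log2 ratio 0.62) and had a log2 ratio of 2.55 with the control mix. Col28a1 and Col26a1, 2 rare collagens, were higher at 1.03 against 0.181 and 0.535 against 0.166 CPM.

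The collagen share was lower in every fibroblast subtype compared, in differing degree. Fibroblast-like cells were split by marker genes, and 5 subtypes had at least 30 cells in each library. The collagen share of UMIs was 4.29% in the control and 3.01% in the IMQ library in Pi16 interstitial-like cells (1.42-fold lower), a type known from fascia and adventitia. It was 9.27% and 4.92% in Thbs4 Cilp fibrous-like cells (1.89-fold), 7.33% and 3.09% in Coch-expressing cells (2.37-fold), and 17.5% and 6.56% in Gdf10 Vtn-like cells (2.67-fold). Papillary-like fibroblasts of the upper dermis went from 12.8% to 2.45%, 5.22-fold lower (5.17 to 5.28). Fibroblast-like cells that passed no subtype gate, 2865 and 806 cells, went from 18.9% to 4.35%. Weighting the subtypes in both libraries as in the control made the log2 ratio of total collagen -1.77 in place of -1.50.

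Col1a1 followed the same order except among the middle subtypes. It had 10421 and 6031 CPM in Pi16 interstitial-like cells (1.73-fold lower), 22365 and 7706 in Coch-expressing cells (2.90-fold), 29017 and 8963 in Thbs4 Cilp fibrous-like cells (3.24-fold), 62101 and 17208 in Gdf10 Vtn-like cells (3.61-fold), and 44141 and 5507 in papillary-like cells (8.01-fold). Col3a1 per Col1a1 transcript was higher in the IMQ library in all 5, from 1.25 to 1.87 in Pi16 interstitial-like, 0.617 to 1.18 in papillary-like, 0.527 to 1.24 in Gdf10 Vtn-like, 0.830 to 1.12 in Coch-expressing and 0.751 to 1.73 in Thbs4 Cilp fibrous-like cells. The markers of a gate can themselves change with treatment: Cxcl12, a marker of the Gdf10 Vtn gate, had 448 and 3113 CPM there. The name stands for the marker list, since Gdf10 itself had 59.1 and 68.1 CPM and Vtn 14.2 and 10.5. Cxcl12 and Apoe were left out of that gate in a choice made after the data were seen. Gdf10 Vtn-like cells then numbered 550 and 414, in place of 930 and 1421, and Col1a1 was 3.89-fold lower. With the same change Col1a1 was 6.13-fold lower in papillary-like and 1.34-fold lower in Pi16 interstitial-like cells. Col3a1 then had 13314 and 14015 CPM in Pi16 interstitial-like cells. The subtype ratios thus depend on the gate.

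**Figure D3:**
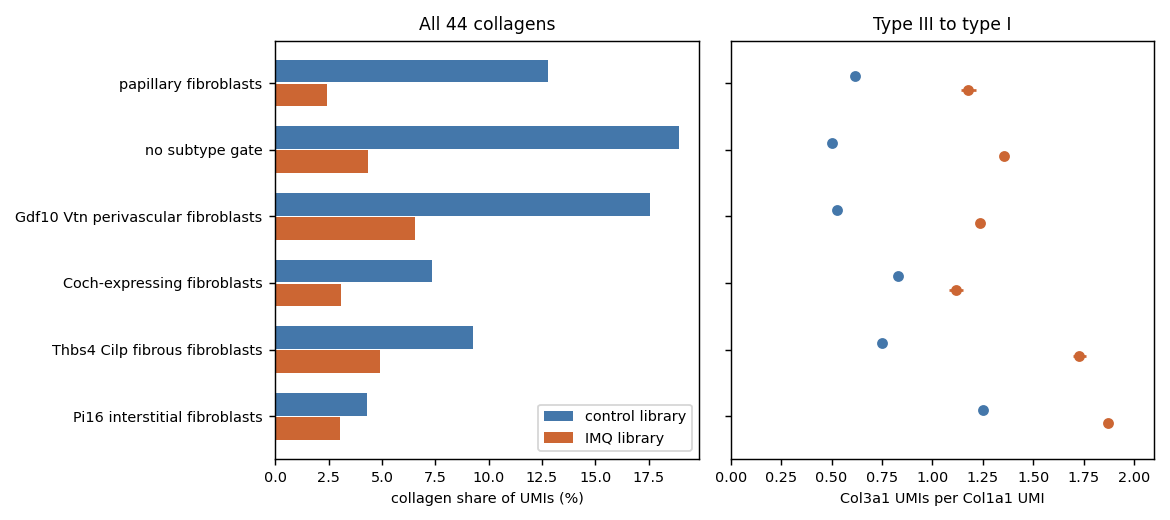
Left, share of UMIs from all 44 collagens (%, bars from 0) in fibroblast subtypes of the control and IMQ library. Right, Col3a1 UMIs per Col1a1 UMI with 95% counting intervals. The control bar is longer than the IMQ bar in every class shown, and the IMQ point lies to the right of the control point.

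Col8a1 and Col12a1 were placed differently among the subtypes. In the control Col8a1 was a transcript of Thbs4 Cilp fibrous-like cells, with 562 CPM there and at most 13 CPM in the other 4 subtypes. In the IMQ library it reached 1640 CPM in those cells (2.92-fold higher) and 97.3 CPM, from 4.28, in cells with no subtype gate. Col12a1 had 7.78 and 85.8 CPM in Gdf10 Vtn-like cells (11.0-fold higher), 6.99-fold more in papillary-like cells (147 CPM in the IMQ library) and 147 and 312 in Thbs4 Cilp fibrous-like cells (2.12-fold). In Pi16 interstitial-like cells it had 46.9 and 53.7 CPM and in Coch-expressing cells 99.7 and 97.5, so these subtypes were not called. Without Cxcl12 and Apoe in the gate Col12a1 was 9.79-fold higher in Gdf10 Vtn-like, 6.53-fold in papillary-like and 1.42-fold in Pi16 interstitial-like cells.

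Other collagens also had a subtype pattern. Col14a1 had 609 and 686 CPM in Pi16 interstitial-like cells but 48.7 and 181 in papillary-like cells. Col15a1 had 32.2 and 32.3 CPM in Pi16 interstitial-like cells, whereas it had 426 and 154 in Gdf10 Vtn-like and 510 and 175 in Coch-expressing cells. Col23a1 had 35.3 and 184 CPM in papillary-like cells. Counted by subtype, 3 of 27 measured collagens were higher (7.16% of all genes) and 1 lower (2.9%) in Pi16 interstitial-like cells. In papillary-like cells 8 of 26 were higher (18% of all genes) and 8 lower (4.27%). In Gdf10 Vtn-like cells 4 of 29 were higher (11.1% of all genes) and 6 lower (2.87%), in Coch-expressing cells 2 of 21 (7.58%) and 4 (3.33%), and in Thbs4 Cilp fibrous-like cells 3 of 24 (5.64%) and 3 (3.48%). Col8a1 was called higher in all 5 subtypes, Col1a1 and Col1a2 lower in the 4 other than Pi16 interstitial-like cells, and Col4a5 lower in the 4 other than Coch-expressing cells.

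Cell by cell, the libraries differed most among the cells richest in collagen. The median collagen share of a fibroblast-like cell was 7.70% in the control, with 10% of cells below 2.11% and 10% above 25.5%. In the IMQ library the median was 3.73%, with the same limits at 1.31% and 8.78%. Cells above a 10% share were 45.3% of control and 5.74% of IMQ fibroblast-like cells. The distributions overlapped: 14.8% of IMQ cells lay above the control median and 70.2% of control cells above the IMQ median.

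**Figure D4:**
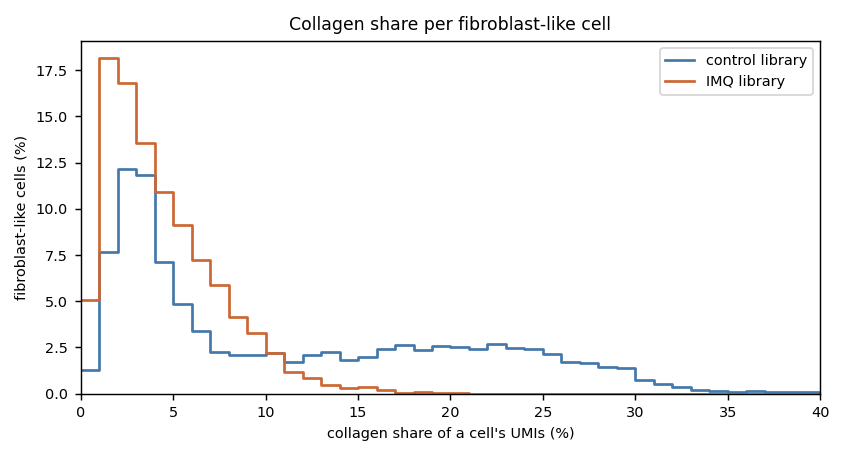
Distribution of the collagen share of a cell's UMIs (%, horizontal axis) over fibroblast-like cells of the control and IMQ library (% of cells, vertical axis). The control curve runs past 20%, whereas 5.74% of IMQ cells lie above 10%.

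Genes that make, process and bind collagen were read from lists chosen with earlier results of these data known, and their counts stand against the 13.3% of all genes called higher and 3.83% called lower in fibroblast-like cells. In fibroblast-like cells, of 22 genes of collagen biosynthesis and secretion 3 were higher, 1 was lower and 18 were neither (median log2 ratio -0.03, against 0.31 for all genes). Creb3l1, a transcription factor of secretory load and collagen genes, was lower at 153 against 364 CPM (2.38-fold). P4ha3, a prolyl hydroxylase subunit, was higher at 7.21 against 0.754 CPM (9.56-fold). Of 13 processing and crosslinking genes 4 were higher and none was lower, including the lysyl oxidases Loxl1 (202 and 439 CPM) and Loxl3 (9.75 and 32.7 CPM) and the transglutaminase Tgm2 (7.75 and 26.6 CPM, with free RNA of 2.88 and 29.9). Of 13 fibril-associated genes 1 was higher, biglycan (Bgn, 1166 and 2353 CPM), and 1 lower, the collagen-binding glycoprotein Sparc (36235 and 13176 CPM, 2.75-fold lower).

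The receptor and degradation lists had shares of higher genes near that of all genes (13.3%). Of 9 receptor genes only Itga11, a fibroblast collagen integrin chain, was called (14.9 and 32.2 CPM). Of 12 degradation genes 2 were higher. Timp1, an inhibitor of collagenases, had 57.8 and 647 CPM (11.2-fold higher, 10.8 to 11.6), and the collagenase Mmp8 had 0.965 and 5.70 CPM, below its free RNA of 6.33 and 116. Of 14 laminins and partners of basement membrane Nid2 was higher (16.1 and 33.5 CPM) and the laminin chains Lama3 and Lamb3 were lower, Lamb3 from below its free RNA.

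In pericyte-like cells the pattern was another, with most measured collagens higher. Of 22 measured, 13 were higher (8.01% of 9988 genes were) and 3 lower (7.33% of genes), and the median log2 ratio was 1.17 for collagens and 0.03 for all genes. All 13 stood at 3 times free RNA or more in the library where they were higher. Of the basement membrane collagens, Col18a1 had 212 and 977 CPM (4.60-fold higher, 4.18 to 5.07), Col4a1 had 629 and 1509 (2.40-fold) and Col4a2 had 394 and 799 (2.03-fold). Col4a5 and Col4a6 were again on the lower side, at 149 and 64.0 CPM (2.33-fold lower) and 49.5 and 8.38 CPM (5.91-fold lower, 3.63 to 10.1). Col15a1 had 15.2 and 33.5 CPM. With clusters in place of the gate Col4a2 and Col15a1 came under 2-fold (log2 ratios 0.96 and 0.84), and as a mean over cells the Col4a5 log2 ratio in pericyte-like cells was -0.98.

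The fibril-regulating and network chains of pericyte-like cells were higher too. Col5a3 had 22.4 and 198 CPM (8.88-fold higher, 6.71 to 11.9), Col5a2 81.9 and 210, and Col5a1 31.5 and 72.8. Col6a1 and Col6a3 had 193 and 198 CPM in the control and 475 and 542 in the IMQ library, while Col6a2 (191 and 353 CPM) was not called. Col8a1 had 7.99 and 79.0 CPM (9.89-fold higher) and Col12a1 33.1 and 162 CPM (4.90-fold higher). Col14a1 (9.98 and 27.3 CPM) and Col13a1 (3 and 20 UMIs) were called from low counts, and Col14a1 came to a log2 ratio of 0.83 as a mean over cells. Type I was not called: Col1a1 had 425 and 445 CPM and Col1a2 615 and 464, and Col3a1 had 710 and 1116 CPM. Free RNA was 576 and 53.1 CPM for Col1a1, 567 and 49.4 for Col1a2 and 352 and 60.7 for Col3a1. In the control the type I levels were near or below free RNA, whereas in the IMQ library they stood far above it. No direction is therefore read from the type I ratios here. Col27a1 was lower, at 39.5 and 10.2 CPM, with free RNA that could not be judged, as in fibroblast-like cells.

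The makeup of the pericyte gate moved with these values. Rgs5, a capillary pericyte marker, had 923 and 2959 CPM, whereas the smooth muscle markers Myh11 and Des had 5490 and 3575, and 3247 and 1550. All 9 pericyte markers were found in both libraries, with summed levels of 10642 and 9727 CPM. The 9 fibroblast markers summed to 980 and 820 CPM, of which Prrx1 alone made up 797 and 580. Of the others, Lum, Serpinf1, Fbln1, Mfap4 and Dpt (25.6 and 77.2 CPM) were higher, and Dcn (79.1 and 62.6 CPM), Twist2 and Pdgfra lower. Cells were therefore divided, after the data were seen, by whether Rgs5 (67 and 82 cells) or Myh11 (247 and 111 cells) had more UMIs. Among Rgs5 cells Col18a1 was 3.33-fold, Col4a1 2.83-fold, Col6a3 4.15-fold and Col5a3 3.70-fold higher. Among Myh11 cells Col18a1 was 4.94-fold, Col8a1 11.0-fold, Col12a1 5.09-fold and Col5a3 4.21-fold higher, but Col6a1 (193 and 238 CPM) and Col5a2 (72.9 and 80.6 CPM) were not past 2-fold. Col15a1 went in opposite directions, from 0 to 79.7 CPM in Rgs5 cells (at least 7.54-fold higher, against a floor of 3 counts) and from 17.2 to 2.96 CPM in Myh11 cells. Pericyte-like cells also had more of the collagen chaperone Serpinh1 (410 and 843 CPM), the procollagen protease Adamts2 (31.9 and 219 CPM) and Sparc (1981 and 4819 CPM), which was lower in fibroblast-like cells. Of the lists, 4 of 20 biosynthesis genes were higher and 0 lower, 2 of 10 processing genes were higher and 0 lower, and 3 of 11 fibril-associated genes were higher and 2 lower, where 8.01% and 7.33% of all genes were.

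Blood endothelial-like cells, which build the basement membrane of capillaries, had more type IV collagen in the IMQ library, on 24 control cells. Marker levels in this gate also differed between the libraries. Selp (38.9 and 811 CPM), Emcn (376 and 792 CPM), Plvap, Aqp1 and Vwf were higher, and Flt1 (1406 and 808 CPM), Ptprb and Sox17 lower. The pericyte marker Rgs5 had 149 and 2.25 CPM. The part of these shifts in the collagen values was not tested. Of 9 measured collagens 5 were higher (8.43% of all genes) and 2 lower (7.38%). Col4a1 had 602 and 1398 CPM (2.32-fold higher, 1.88 to 2.88), Col4a2 304 and 862 (2.83-fold), Col18a1 104 and 629 (6.07-fold, 3.72 to 10.7), Col15a1 201 and 457 (2.27-fold) and Col13a1 110 and 288 (2.61-fold). Col4a1 came to a log2 ratio of 0.76 with clusters in place of the gate. The lower calls were Col1a1 (233 and 60.2 CPM) and Col1a2 (233 and 99.0 CPM), both below free RNA in the control, and Col3a1 had 227 and 128 CPM. A single cell held 63 of 107 Col1a1, 128 of 176 Col1a2 and 164 of 227 Col3a1 UMIs of the IMQ library, and with clusters in place of the gate the log2 ratios were -0.05, 0.35 and 0.09, so no direction is read from these genes here.

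In keratinocyte-like cells the hemidesmosome collagen Col17a1, a transmembrane protein that ties basal cells to the basement membrane, was lower in the basal and suprabasal layers. It had 380 and 219 CPM in all keratinocyte-like cells (1.73-fold lower, not called), 845 and 320 in basal-like cells (2.63-fold lower, a direction called for 9.07% of all genes there) and 69.2 and 2.30 in suprabasal-like cells (30.1-fold lower, 17.5% of all genes). The last of these levels is that of free RNA (2.24 CPM), so the size of the suprabasal ratio cannot be read. In follicle-like cells Col17a1 had 17.0 and 13.1 CPM and was not called. Marker levels in the basal gate differed too. The follicle markers Krt17 (381 and 1781 CPM), Sox9 (188 and 414 CPM), Lhx2 and Krt79 were higher there, and Cst6 and Gata6 lower. The basal marker Krt15 had 2498 and 1209 CPM there, and the other basal markers were also lower. The part of these shifts in the Col17a1 values was not tested. Col7a1, which forms the anchoring fibrils, had 24.1 and 28.0 CPM, and 54.5 and 39.8 in basal-like cells. Col18a1 had 30.1 and 53.1 CPM, not past 2-fold, and 71.1 and 76.7 in basal-like cells. Col4a5 had 12.7 and 7.13 CPM, and Col4a6 10.3 and 3.90 (2.63-fold lower). Basal-like cells made up 627 of 1566 control and 1366 of 2099 IMQ keratinocyte-like cells.

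Of 29 collagens measured in keratinocyte-like cells 7 were higher (11.7% of 14080 genes) and 9 lower (11.2%), and 4 of the 7 and 2 of the 9 stood at 3 times free RNA, which could not be judged for Col27a1. Those are Col12a1 (6.12 and 24.1 CPM, 3.93-fold higher, with free RNA of 2.88 and 2.56), Col4a4, Col8a2 and Col2a1 at under 3 CPM, and Col4a6 and Col23a1 (21.8 and 9.57 CPM, 2.27-fold lower, with a log2 ratio of -0.91 after free RNA was subtracted). The fibrillar collagens sat at the free RNA level: Col1a1 had 573 and 40.2 CPM in keratinocyte-like cells, against free RNA of 576 and 53.1. Col1a2 had 616 and 43.3 CPM and Col3a1 305 and 57.0 CPM, and Col3a1 per Col1a1 transcript was 0.532 and 1.42, close to the 0.560 and 1.33 of fibroblast-like cells.

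In Schwann-like cells, of 24 measured collagens 4 were higher (2.86% of 6574 genes) and 1 lower (2.39%), or 5 in either direction (5.25%). Col16a1 had 41.9 and 151 CPM (3.61-fold higher, 2.22 to 6.12), Col11a1 14.0 and 37.8 (2.71-fold, and a log2 ratio of 0.56 as a mean over cells) and Col6a3 31.9 and 65.3 (2.05-fold, with free RNA of 21.3 CPM in the control and a log2 ratio of 0.74 with clusters). Col20a1, a FACIT chain, had 0 UMIs in the control and 23 in the IMQ library, at least 6.60-fold higher, but in 5 cells. Col1a1 (950 and 371 CPM) was lower, with a control level under 3 times free RNA. Col28a1, a nerve-associated collagen, had 202 and 352 CPM (1.75-fold higher, not called), Col5a3 had 271 and 344, Col4a1 499 and 509, and Col18a1 172 and 175 CPM. The fibroblast markers summed to 231 and 571 CPM in Schwann-like cells, most of it Dcn (134 and 479 CPM). Prrx1 (31.9 and 55.0 CPM), Fbln1 and Serpinf1 were also higher. Lum (25.9 and 6.87 CPM), Dpt (16.0 and 1.72 CPM), Pdgfra, Twist2 and Mfap4 were lower. The part of fibroblast RNA in these collagen values was not tested.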

How the data were processed

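Raw UMI counts per gene and barcode were used as deposited by the authors. They came from Cell Ranger 5.0.0 per the file headers. The submitters' processing notes list Cell Ranger (3.0.2), mm10 and Seurat (2.0), and annotation and read filters are not given in the sources used here. Every barcode listed had at least 500 UMIs. The cells analysed had 200 genes or more and no more than 10% mitochondrial UMIs, after Scrublet (scanpy 1.11.5) had removed 422 control (4.10%) and 110 IMQ (1.29%) doublets at an expected 0.8% per 1000 cells. Cells were gated by the mean log level of fixed lineage markers, relative to the 50 highest cells, with a score of at least 0.3, at least 3 markers present and the next lineage at most 0.6 of it. Subtypes needed 2 markers and allowed the next subtype 0.8.

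UMIs were summed per lineage and library and scaled to CPM. Levels have exact Poisson and ratios exact conditional binomial intervals at 95% (scipy 1.17.1), for counting error only. A ratio against 0 UMIs used a floor of 3 counts. The ratio step was tested on simulated data. Values are given for collagens with at least 50 CPM in either library or called past 2-fold, and for up to 4 called genes of each list with the most extreme ratios. Members, markers and lists were chosen with earlier results of these data known. Alternatives changed doublet, gene and mitochondrial filters, gate, scaling, free RNA and UMI minimum.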

Additional observations from a re-analysis of the deposited data

Results flagged for a closer look

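Several collagens were called in opposite directions in different lineages, and none of these differences between lineages was tested, since each condition had 1 library. Col15a1 had a log2 ratio of IMQ over control of -1.29 in fibroblast-like cells, 1.14 in pericyte-like and 1.19 in blood endothelial-like cells. The pericyte value came under 2-fold with clusters in place of the gate. Within that gate Col15a1 was higher in Rgs5 cells and lower in Myh11 cells. Col16a1 had -1.09 in fibroblast-like and 1.85 in Schwann-like cells. Col20a1 had -1.19 in fibroblast-like cells and, as a lower bound against 0 control UMIs, 2.72 in Schwann-like cells. Col23a1 had 1.12 in fibroblast-like cells, 1.85 with the control subtype mix, and -1.18 in keratinocyte-like cells. It came to -0.25 in fibroblast-like cells taken from clusters and to -0.91 in keratinocyte-like cells with free RNA subtracted.

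Some collagens were highest in lineages outside those compared. Col12a1 reached 496 CPM in melanocyte-like cells of the control and 185 CPM in those of the IMQ library, on 20 and 33 cells, against free RNA of 2.88 and 2.56 CPM. Col23a1 reached 90.5 and 145 CPM in lymphatic endothelial-like cells. Col5a3 reached 291 CPM in muscle satellite-like cells of the control, on 42 cells. Col27a1 reached 125 CPM in T and NK-like cells of the control. These cells are part of the group whose level is taken as free RNA, which was 46.6 CPM for Col27a1, so that level is no measure of free RNA for this gene.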

How the results depend on the processing

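No paired analysis was possible because each group has 1 library. The log2 ratio of total collagen in fibroblast-like cells, -1.50 as reported, stayed below -1.3 in every alternative: -1.50 with doublets kept, -1.50 with at most 5% mitochondrial UMIs, -1.49 with a stricter gate, -1.45 with clusters in place of the gate, -1.65 with CPM over non-collagen UMIs, -1.81 scaled to the median gene, -1.49 with free RNA subtracted, -1.36 as a mean of per-cell CPM and -1.77 with the control subtype mix. Collagens higher in fibroblast-like cells, 11 as reported, were 7 with clusters, 7 scaled to the median gene and 6 by per-cell mean. Collagens past 2-fold in Schwann-like cells, 5 as reported, were 3 with a stricter gate, 2 at a minimum of 100 UMIs and 3 by per-cell mean. The cause of these shifts was not tested. Single log2 ratios changed sign for Col23a1 in fibroblast-like cells (-0.25 with clusters), Col1a2 in blood endothelial-like cells (0.35 with clusters, 1.35 with free RNA subtracted), and with free RNA subtracted for Col27a1 in pericyte-like cells (1.73) and Col5a1 (2.89), Col27a1 (-0.88) and Col6a2 (3.80) in keratinocyte-like cells. The Col27a1 values have no meaning, since the level subtracted is no measure of its free RNA. Of 96 single ratios, 96 moved by less than their interval with at least 500 genes per cell, 59 with free RNA subtracted and 55 by per-cell mean, where 15 called ratios came under 2-fold. The gate without Cxcl12 and Apoe and the pericyte split were added after the data were seen. The 24 control blood endothelial-like cells and free RNA in cells other than fibroblasts limit what these depths can show.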
